A study of Mus musculus with 2 samples.

Results

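The genes described here encode the proteins of the cytosolic ribosome. They were taken by name, as the genes with an Rpl or Rps number together with Rpsa and the stalk genes Rplp0, Rplp1 and Rplp2, and the S6 kinases were left out. A gene entered where at least 1 probe set (a group of short probes against the same stretch of RNA) carried its symbol alone in the platform annotation. This gave 50 genes read by 106 probe sets, of 18193 genes read by 34945 probe sets in the whole series. Of the 50, 25 encode large-subunit proteins or their paralogs and 23 small-subunit ones. The other 2, Rps19bp1 and Rpl7l1, match by name and are not counted as subunits: Rps19bp1 encodes a protein that binds the ribosomal protein of Rps19, and Rpl7l1 a relative of the Rpl7 protein. Another 31 names of the same kind, among them Rpl3, Rpl5, Rpl10 and Rplp1, occur only on probe sets that also list pseudogenes, predicted genes or other genes, so they are not among the 50.

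The arrays set C2C12 cells carrying an shRNA, a hairpin RNA that lowers its target, against Lrrfip1 (labelled shLrrfip1a) beside C2C12 cells with a control hairpin (labelled shLCUI in the samples). C2C12 is a mouse myoblast line that fuses into myotubes when serum is lowered, and both groups were collected after 5 days in 2% horse serum. Each group was 1 array, so no difference below has a replicate check, a p-value or an SD between cultures, and the number of arrays limits the precision. How the hairpins were delivered, and whether the cells were 1 clone or a pool, is not given in the labels.

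Lrrfip1 read between 62.2% and 70.6% of the control intensity on its 3 probe sets. Of 10 myotube markers, 9 lay above the level filter explained below, and they did not move as a group: 3 read higher in shLrrfip1a cells and 6 lower, from -0.38 for Myog to 0.38 for Ckm, with a median of -0.10. The list summed to 16738 in shLrrfip1a cells and 18012 in control cells. The 7 measured markers of other cell types summed to 202 in shLrrfip1a cells and 169 in control cells, with none of the 7 above the filter. The 3 markers of undifferentiated or dividing myoblasts summed to 854 against 1110, among them Myf5 at 82.8 against 159 and Pax7, below the filter, at 22.6 against 70.4. Their part in the differences below was not tested. On 45 bacterial and phage spike-in control probe sets, 39 read lower in the shLrrfip1a array, with a median log2 difference of -0.15, so scaling to them adds 0.15 to every difference below.

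A ribosome is built from ribosomal RNA and a fixed set of proteins, and the genes for these proteins are among the most strongly expressed of any growing cell. Their mRNAs typically start with a cytosine followed by a run of pyrimidines, the 5′ terminal oligopyrimidine (TOP) tract, through which the kinase complex mTORC1 and the RNA-binding protein LARP1 control their translation. A few ribosomal proteins have a paralog that can take their place in some tissues, such as Rpl3l in striated muscle. In muscle cells the pathway is known for its role in growth, since added ribosomes accompany hypertrophy.

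The letters around the annotated starts of these genes show how far the tract is visible in the reference. The RefSeq promoter table of build GRCm38.p6 held 44 of the 50 genes, on 15 chromosomes, with 250 bases before and 50 after each annotated start, and 7 of the 44 had several listed starts. The windows below run from 15 bases before the first listed start to 15 after it, 5′ to 3′ on the gene's strand, with the longest unbroken pyrimidine run in capitals. The first set shows genes with a run at or across the start.
Rpl35, chr2:39005117-39005146, minus strand: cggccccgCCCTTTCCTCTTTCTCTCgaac
Rpl38, chr11:114668565-114668594, plus strand: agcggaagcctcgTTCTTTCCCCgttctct
Rplp2, chr7:141447636-141447665, plus strand: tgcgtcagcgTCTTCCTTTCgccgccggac
Rps6, chr4:86857353-86857382, minus strand: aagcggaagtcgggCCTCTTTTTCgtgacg
Rps10, chr17:27635230-27635259, minus strand: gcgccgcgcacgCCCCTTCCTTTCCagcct
Rps18, chr17:33955651-33955680, minus strand: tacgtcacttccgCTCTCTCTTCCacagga
Rpl7a, chr2:26910792-26910821, plus strand: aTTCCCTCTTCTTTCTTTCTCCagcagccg

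The second set shows the members with the largest differences and the paralogs discussed below, whose annotated starts do not open with such a tract.
Rpl22l1, chr3:28805493-28805522, plus strand: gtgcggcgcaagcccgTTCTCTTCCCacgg
Rpsa, chr9:120127751-120127780, plus strand: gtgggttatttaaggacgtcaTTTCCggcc
Rps27l, chr9:66946071-66946100, plus strand: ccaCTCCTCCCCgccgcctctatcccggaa
Rpl3l, chr17:24727811-24727840, plus strand: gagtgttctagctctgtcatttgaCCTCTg
Rpl7l1, chr17:46782642-46782671, minus strand: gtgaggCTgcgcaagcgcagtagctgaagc

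In Rpl22l1 a run of 10 pyrimidines began 1 base after the annotated start, while in Rpl7l1 the longest run in the window was 2 bases. A cytosine followed by at least 4 pyrimidines stood exactly at an annotated start of 8 of the 44 genes (18.2%), against 283 of 9225 genes above the level filter with a listed start (3.07%). RefSeq starts can lie some bases from the position a cell uses, so a wider window was also read. Within 25 bases of a listed start, 23 of the 44 (52.3%) held a run of at least 8 pyrimidines, against 22.9% of those 9225 genes.

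Short motifs were then searched on both strands of the 300 bases, each overlapping others freely. The ETS core CCGGAAG, bound by factors such as GABP, was found in 21 of 44 ribosomal protein genes (47.7%) and in 19.8% of the 9225 genes. The palindromic element CTCGCGAG was found in 13.6% against 2.16%, and AAGATGG, the core of YY1 sites, in 18.2% against 8.42%. The GC box GGGCGG was less frequent in these genes, at 59.1% against 68.3%, as was the E box CACGTG at 9.09% against 11.8%. TATAAA stood in 13.6% against 9.11%. A match is a description of these letters and not evidence of binding. Among all 27025 genes in the table the ETS core stood in 9.93%, CTCGCGAG in 1.04% and AAGATGG in 7.28%. For the other motifs the order turned against these 27025 genes. Of them 38.2% held GGGCGG, 8.09% CACGTG and 15.7% TATAAA, so those directions depend on the genes compared.

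**Figure D1:**
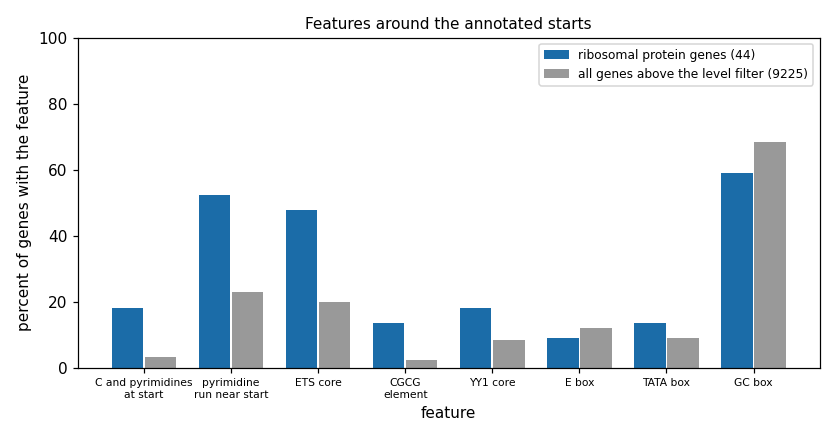
Bars give the percent of genes with each feature, for 44 ribosomal protein genes (left bar of each pair) and 9225 genes above the level filter (right bar). The first feature is a cytosine with at least 4 pyrimidines exactly at a start, the second a run of at least 8 pyrimidines within 25 bases of it, and the others are motifs anywhere in the 300 bases; the ETS core reaches 47.7% against 19.8%.

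Most members were read near the top of the intensity range. The intensities are linear values per probe set, and a gene's value is that of its brightest probe set, by the mean of log2(intensity + 16) over both arrays. Genes were counted when this mean exceeded the midpoint of the array, the median probe set at an intensity of 52.4, which held for 46 of the 50 ribosomal protein genes and for 11448 of all genes. Of these 46, 36 (78.3%) lay above the 98th percentile on both arrays, against 453 of the 11448 genes (3.96%). These 36 ran from 1576 to 7876 in shLrrfip1a cells and from 2286 to 7987 in control cells. A place in the intensity range also depends on how well a probe set binds, so it does not rank the members by amount of RNA.

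The brightest reading was that of Rpl41, the gene of the smallest ribosomal protein, at 7876 in shLrrfip1a cells and 7987 in control cells. Next were Rps29 (6440 against 7094), Rpl37a (6380 against 6589), the stalk gene Rplp0 (5884 against 6296) and Rps28 (5930 against 6086). The highest value of any probe set was 9155 in shLrrfip1a cells and 9861 in control cells.

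The 4 genes below the filter were Rpl39 (51.3 against 43.3), Rps4l (22.4 against 21.9), Rpl39l (8.42 against 7.01) and Rps16 (8.20 against 4.40). Rpl39l is a paralog known from testis. Rps16 and Rpl39 are core subunit genes, and their low readings belong to their only probe set with 1 symbol: the probe sets that list them beside other names were bright, such as 5598 against 6048 for Rps16. A further 10 genes passed the filter but not the 98th percentile, between 58.0 and 662 in shLrrfip1a cells and between 60.1 and 569 in control cells. They were Rpl12, Rpl14, Rpl27a, Rpl37, Rpl3l, Rpl7l1, Rps6, Rps19bp1, Rps25 and Rps27. No other probe set with 1 symbol read these 10 genes higher.

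**Figure D2:**
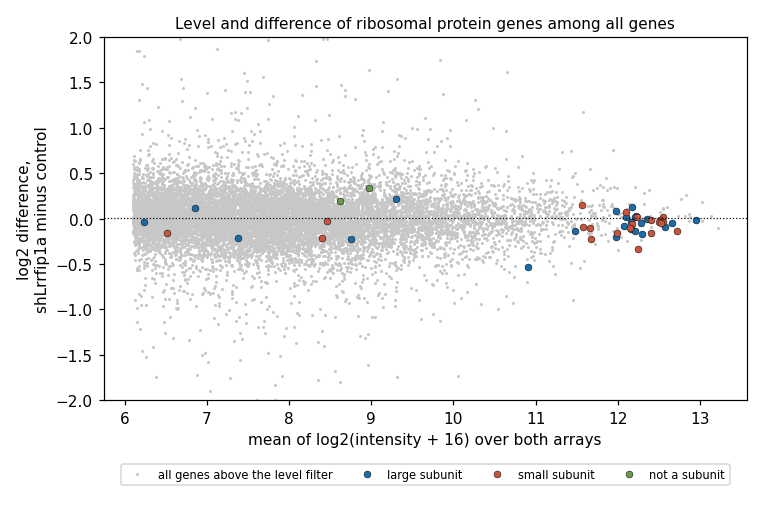
The horizontal axis gives the mean of log2(intensity + 16) over both arrays and the vertical axis the log2 difference, shLrrfip1a minus control, for 11448 genes above the level filter (grey; 25 lie outside the drawn range of 2 in either direction). Large-subunit members are blue, small-subunit members red and the 2 genes that are no subunit green; 36 of the 46 members form a tight group at the bright end.

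Between the hairpins none of the 46 members above the filter differed by a large factor. None of the 46 reached 1.5-fold, whereas of all 11448 genes 2.34% passed 1.5-fold upwards and 2.46% downwards in shLrrfip1a cells. Outside this count are the 31 names found only on probe sets with several symbols. Of 4 such probe sets that list Rpl29, 3 passed 1.5-fold downwards, as given under the other observations. Most members are bright, and in the band above the 98th percentile 6 of 417 other genes (1.44%) passed 1.5-fold in either direction, so a count of 0 among 36 members there is near the share of genes of that level. At 2-fold the shares of all genes were 0.664% higher and 0.69% lower, again with no member. At 1.2-fold 1 member of 46 was higher and 2 were lower, where 13.8% of all genes were higher and 13.5% lower. The SD over the 46 genes was 0.15 on the log2 scale, against 0.32 over all genes. Of the 46, 37 (80.4%) lay within 0.2 of 0, against 60.7% of all genes. These shares and SDs are not matched for level. Above the 98th percentile the gap was narrower, with an SD of 0.13 over 36 members and 0.22 over the 417 other genes.

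Their common position was slightly low. The median log2 difference, shLrrfip1a minus control, was -0.05 over the 46 members and 0.00 over all 11448 genes. Of the members 33 lay below the median of all genes and 13 above it. As deposited, 33 members read lower in shLrrfip1a cells and 13 higher, and this turns to 11 lower and 35 higher when the arrays are scaled to the spike-in controls, which moves the median of all genes to 0.16 and that of the members to 0.10. The distance between the members and all genes, -0.05, is necessarily the same under both scalings, because spike-in scaling adds the same value to every gene.

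Other genes in the brightest band had a median on the other side of 0. Above the 98th percentile on both arrays, 36 members had a median of -0.05 with an SD over genes of 0.13, and the 417 other genes had a median of 0.03 with an SD of 0.22. In this band 27 of 36 members read lower in shLrrfip1a cells, against 176 of 417 other genes (42.2%), and spike-in scaling shifts both upwards by the same 0.15. The 3 control probe sets for the small subunit's ribosomal RNA read 2873, 6634 and 4428 in shLrrfip1a cells and 3430, 7486 and 5033 in control cells. Their log2 differences were -0.25, -0.17 and -0.18, beside a median of -0.15 over the spike-in control probe sets. Whether these 3 probe sets follow the amount of ribosomal RNA in the cells was not tested.

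**Figure D3:**
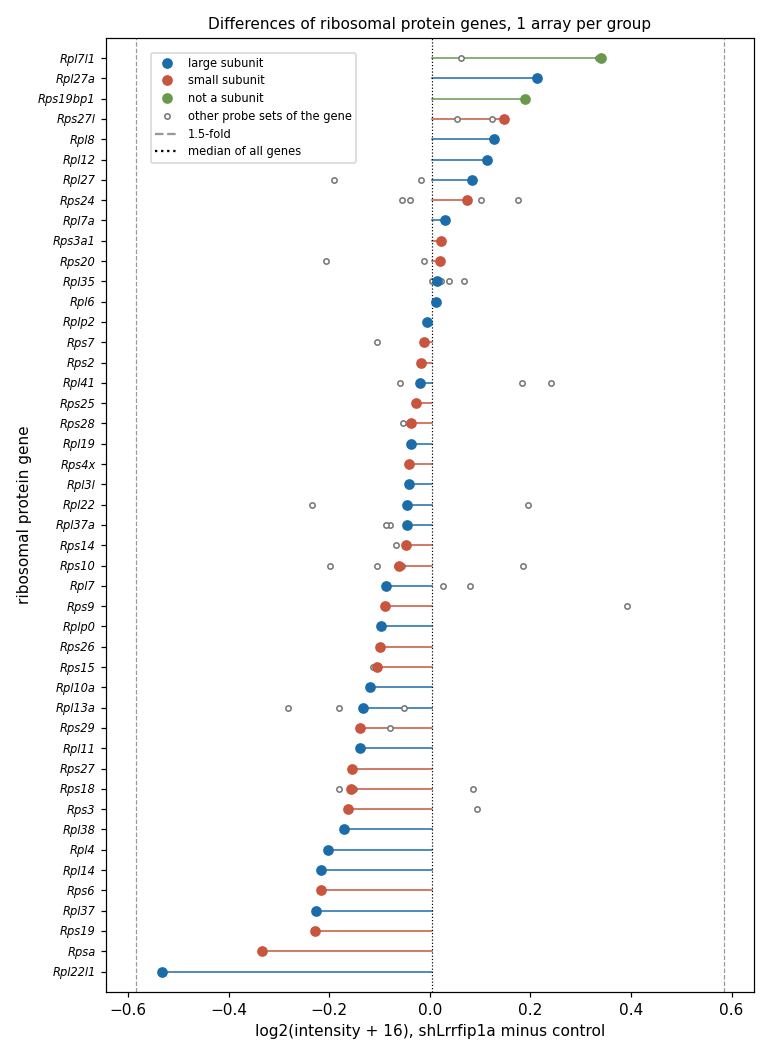
Each row is 1 of the 46 ribosomal protein genes above the level filter, ordered by its log2 difference, shLrrfip1a minus control (horizontal axis); filled points are the brightest probe set and open points the gene's other probe sets above the filter. All filled points lie inside the dashed 1.5-fold lines, and 33 of 46 lie left of the dotted median of all genes.

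Both subunits had close medians. The 23 large-subunit genes had a median log2 difference of -0.05 (-0.53 to 0.21) and the 21 small-subunit genes one of -0.06 (-0.33 to 0.15). Below the median of all genes lay 16 of the 23 and 17 of the 21. Under spike-in scaling the medians were 0.11 and 0.089.

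**Figure D4:**
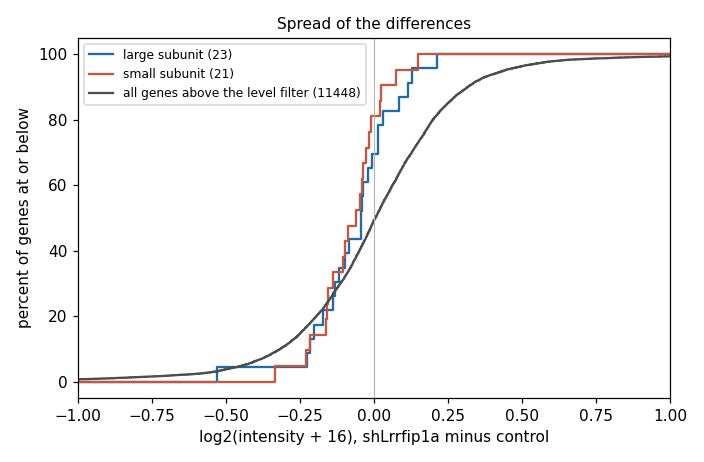
Curves give the percent of genes (vertical axis) at or below each log2 difference, shLrrfip1a minus control (horizontal axis), for 23 large-subunit genes, 21 small-subunit genes and all 11448 genes above the level filter. The curves of both subunits are steeper than that of all genes and cross 50% near -0.05 and -0.06, where all genes cross it at 0.00; spike-in scaling moves the 3 curves to the right by 0.15.

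The largest difference among the members was that of Rpl22l1, the paralog of Rpl22. Rpl22l1 was read by 1 probe set, at 1576 in shLrrfip1a cells and 2286 in control cells, a log2 difference of -0.53. Rpl22, which encodes a large-subunit protein dispensable for general translation, read 4879 against 5036 on its brightest probe set (-0.05). Its other probe sets disagreed, at 1735 against 2046 (-0.24) and 929 against 810 (0.19). Rpl22l1 thus lay 0.49 below its partner on their brightest probe sets, and its difference stayed between -0.54 and -0.38 over the alternative scalings, pseudocounts and probe set choices.

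Rpsa, which encodes a small-subunit protein that also serves as a laminin receptor precursor, was second. It read 4297 against 5419 on the probe set above the filter (-0.33) and 33.5 against 40.8 on a dim one (-0.20). Next in the same direction were Rps19 (2999 against 3518), the gene most often mutated in Diamond-Blackfan anaemia in human, and Rpl37 (384 against 452). Rps6, whose protein is the classic substrate of the S6 kinases, read 298 against 349 (-0.22), and Rpl14 read 139 against 164 (-0.22). Rpl37, Rps6 and Rpl14 were each read by a probe set below the 90th percentile in shLrrfip1a cells. Brighter probe sets that list them with a pseudogene or related gene gave smaller differences. The brightest of these read 7090 against 7268 for Rps6 (-0.04), 6150 against 6110 for Rpl37 (0.01) and 2580 against 2832 for Rpl14 (-0.13). Others came close to the values above, reaching -0.21 for Rps6 (3825 against 4414) and -0.20 for Rpl14 (2003 against 2303). With spike-in scaling Rpl22l1, Rpsa and Rps19 remained lower in shLrrfip1a cells, at -0.38, -0.18 and -0.08. Rpl37, Rps6 and Rpl14 also stayed lower on their probe sets with 1 symbol, at -0.08, -0.07 and -0.06.

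On the other side, the 2 genes that are no subunit stood among the 3 highest of the 46 members above the filter. Rpl7l1 read 549 against 431 (0.34), 419 against 329 (0.33) and 155 against 148 (0.06) on its 3 probe sets. Rps19bp1 read 403 against 351 (0.19). Between them lay Rpl27a, at 662 against 569 (0.21) on a plain probe set, while a dim one read 47.1 against 52.5 (-0.12). A much brighter probe set that lists Rpl27a with predicted genes went the other way, at 4274 against 4947 (-0.21). Rpl8 (4809 against 4402, 0.13) was second to the paralog Rps27l, described below, among members above the 98th percentile. Rpl12 read 104 against 94.6 (0.11), but bright probe sets that list it with predicted genes read 3000 against 3595 (-0.26) and 4002 against 4283 (-0.10).

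Other paralog pairs could be compared in part. Rps27l, a paralog of Rps27 known as a target of p53, read 3168 against 2857 (0.15), 2725 against 2500 (0.12) and 2282 against 2197 (0.05), higher in shLrrfip1a cells on all 3 probe sets. Over the alternative settings its gene value ran from 0.087 to 0.30. Rps27 itself was read by 1 dim probe set, at 70.7 against 80.5 (-0.15). The X-linked Rps4x read 5716 against 5880 (-0.04), and its paralog Rps4l was below the filter. Rpl7 read 4185 against 4445 (-0.09) on its brightest probe set, and Rpl7l1 lay 0.43 above it on the brightest probe sets. The other Rpl7 probe sets disagreed, at 3529 against 3467 (0.03) and 2599 against 2458 (0.08). With the mean over probe sets Rpl7 came to 0.01 and Rpl7l1 to 0.24. The striated-muscle paralog Rpl3l was barely above the filter, at 58.0 against 60.1 (-0.04), and Rpl3 itself had no probe set with 1 symbol.

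The stalk proteins, which bind elongation factors on the large subunit, were read for Rplp0 (5884 against 6296, -0.10) and Rplp2 (5218 against 5242, -0.01). These had probe sets with 1 symbol, while Rplp1, listed with a predicted gene, read 5837 against 6371 (-0.13). Rpl11, whose protein sits in the 5S particle and can bind Mdm2, read 2705 against 2982 (-0.14). Of 18 genes linked to Diamond-Blackfan anaemia in human, 11 had a probe set with 1 symbol and all 11 passed the filter. Their median difference was -0.06 (-0.23 to 0.08), with 8 below and 3 above the median of all genes, and the median of all 46 members was -0.05. Of genes that serve as quantification standards, Rpl13a read 4512 against 4950 (-0.13) and Rps18 5131 against 5726 (-0.16), and with spike-in scaling Rpl13a came to 0.02 and Rps18 to -0.01.

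Probe sets of 1 gene gave a scale for these small values. Of the members, 20 had several probe sets above the filter, 65 in all, with a pooled SD within a gene of 0.12. All probe sets of a gene lay on the same side of the median of all genes for 10 of the 20, against 59.9% of 4853 such genes in the series. When only probe sets above the 98th percentile were read, 48 probe sets of 17 genes, the pooled SD fell to 0.06. In 13 of these 17 genes they then lay on 1 side, below in 11 and above in 2. The matching share over all genes was not counted for such bright probe sets. Many of the 48 end in _x_at, a kind described below that can bind other transcripts. Rps28 was the tightest among genes with 3, at -0.05, -0.04 and -0.04, and Rps10 held 6 from -0.20 to 0.19, the highest being its dimmest. Rps9 had the widest range, with -0.09 on its bright probe set (2942 against 3132) and 0.39 on a dim one (89.3 against 64.3). All of a gene's probe sets saw 1 RNA sample per group, so this spread is that of the array and not of cultures.

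The kind of probe set went with level. Of 35 plain probe sets 6 lay above the 98th percentile, while 34 of 40 whose identifier ends in _x_at, and so can bind other transcripts, did. Above the filter, the median log2 difference was 0.06 over 23 plain probe sets, -0.10 over 28 with the ending _a_at, which reads several transcripts of 1 gene, and -0.05 over 37 with _x_at. Leaving out the _x_at and _s_at probe sets kept 41 members, whose median was -0.04.

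Start-site letters and differences were set side by side as a description. The 8 members with a tract exactly at a listed start had a median log2 difference of -0.16 (-0.22 to 0.01), against -0.04 (-0.53 to 0.34) for the 33 others above the filter. Of the 8, Rpl14, Rps6 and Rps27 were read by weak probe sets. Above the 98th percentile the 5 others had a median of -0.06, against -0.05 for 26 members without the tract. The contrast was thus small among bright members, and this split was added after the values were seen. The brightest probe sets that list the weakly read genes with other names gave -0.13 (Rpl14), -0.04 (Rps6) and -0.17 (Rps27). Members with the ETS core had a median of -0.03 (n = 19) and those without it one of -0.07 (n = 22).

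Lists of genes that make ribosomes had medians above that of all genes. Of 10 genes for the core of small nucleolar ribonucleoproteins, which modify ribosomal RNA, 9 passed the filter, and their median log2 difference was 0.18, with 7 above and 2 below the median of all genes. Dkc1, the pseudouridine synthase dyskerin, read 497 against 359 (0.45), and Nop56, of the methylation complex, 692 against 506 (0.44), both higher in shLrrfip1a cells on all their probe sets above the filter. Over the scalings tried, the gene values stayed between 0.45 and 0.60 for Dkc1 and between 0.43 and 0.59 for Nop56. As deposited none of the 9 reached 1.5-fold. With spike-in scaling, which shifts every value upwards and gave the upper ends of these ranges, Dkc1 and Nop56 passed it. Under that scaling 781 of 11448 genes passed 1.5-fold in either direction, against 550 as deposited.

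The assembly factors showed a smaller shift. Of 42 small-subunit assembly genes 28 lay above the median of all genes and 14 below (median 0.05), and of 47 large-subunit ones 31 above and 16 below (median 0.06), with none past 1.5-fold as deposited. Utp20 (256 against 189, 0.41) and Tsr1 (579 against 443, 0.38) led the first group. In the second the ATPase gene Nvl was at -0.46 (101 against 146), opposite to Ftsj3 at 0.38 (342 against 258). RNA polymerase I and its factors, which transcribe ribosomal RNA, had a median of 0.07 over 14 genes, 8 of them above and 6 below that of all genes, with Polr1c at -0.30 (261 against 325) and the initiation factor gene Rrn3 at 0.18 (191 against 166). Of the ribosomal protein genes outside the naming rule, Fau was measured, at 4585 against 5391 (-0.23).

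Other mRNAs known to carry a TOP tract were level as a group. Over 18 such genes the median log2 difference was 0.02, with 10 above and 8 below the median of all genes; with quantile normalization it was 0.00, with 9 on each side. The elongation factor gene Eef1a1 read 7283 against 7133 (0.03) and Eef2 2552 against 2824 (-0.15). The initiation factor subunits Eif3f (1422 against 1797, -0.33) and Eif3e (4173 against 3351, 0.32) differed in opposite directions.

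Of 13 measured transcription factors linked to ribosomal protein genes, 12 passed the filter, with 4 above and 8 below the median of all genes and 1 (Mycn) past 1.5-fold downwards, where 2.46% of all genes were. Mycn, a Myc family gene of proliferating progenitors, read 1044 in shLrrfip1a cells and 2097 in control cells, a log2 difference of -0.995 with the pseudocount, and its other probe sets were below the filter. Myc itself read 297 against 305 (-0.04), and of the ETS factor GABP the subunit genes Gabpa (397 against 432, -0.12) and Gabpb1 (126 against 127, -0.02) were close to level. Foxk1 was next at -0.41 (177 against 240), although a weaker probe set gave 0.12 (71.8 against 64.8), and the list's median was -0.01.

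Genes of mTORC1 and translation control had a median of 0.00 over 18 genes, 9 on each side of that of all genes, and none passed 1.5-fold. Mtor read 344 against 341 (0.01) and Larp1 729 against 778 (-0.09). The largest differences were those of the genes of translation repressors that mTORC1 phosphorylates. Eif4ebp2 read 231 against 335 (-0.50), and its weaker probe sets above the filter gave -0.66 and 0.19. Eif4ebp1 read 1058 against 1442 (-0.44), and its weaker ones gave -0.64 and -0.06.

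**Figure D5:**
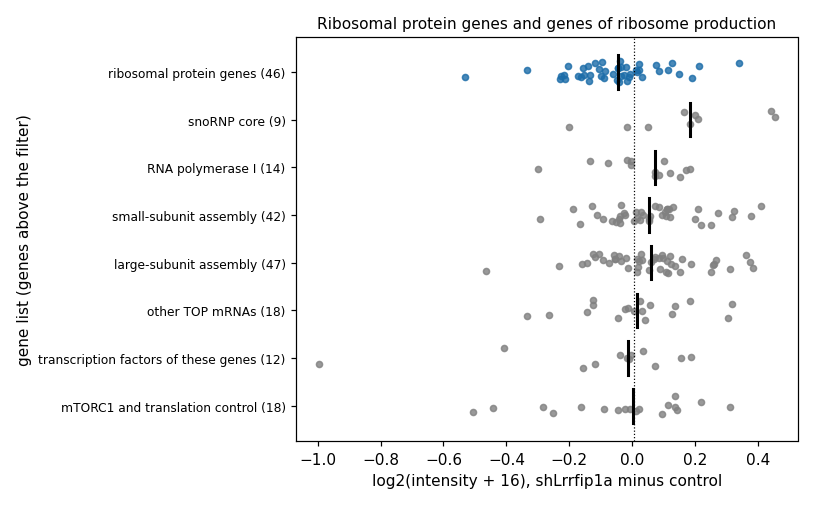
Points are genes above the level filter by their log2 difference, shLrrfip1a minus control (horizontal axis), in the ribosomal protein genes and 7 lists of ribosome production and its control (rows), black bars are medians and the dotted line is the median of all genes. The median is -0.05 for ribosomal protein genes and 0.18 for the small nucleolar ribonucleoprotein core, and Mycn lies at -0.995; spike-in scaling shifts all points by 0.15 and makes the first median positive.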

How the data were processed

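The authors deposited a linear intensity for every probe set of each array, from Affymetrix mouse arrays hybridized with biotin-labelled cRNA made from 6 ug of total RNA, per the labels' protocols. How probes were summarised, and how the arrays were scaled, is not stated there. Gene symbols came from the platform annotation, and all 50 members were found in RefSeq's mouse genes (GRCm38.p6) under their gene identifier with the same symbol.

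From these intensities log2(intensity + 16) was taken, on the authors' scaling, and the control value was subtracted from the shLrrfip1a value. The pseudocount of 16 understates the change of dim probe sets. A fold was called by size alone, at 1.5-fold and 2-fold with 1.2-fold beside them, and no test was run because each group has 1 array. The 64 control probe sets were left out of counts and percentiles. The summary code was run on simulated data with known shifts put into the members. The tolerance of this check was wider than the members' median difference, so it gives no support for a shift of that size. Python 3.11.15, numpy 2.4.6, pandas 2.3.3 and statsmodels 0.14.6 were used.

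The members and the gene lists were chosen with earlier results of these data known. Named genes were the 6 members with the largest difference in each direction, paralogs, genes named by role, the brightest and dimmest members, and from each list the 2 genes farthest from 0, while Eef1a1, Eef2, Myc, Gabpa, Gabpb1, Mtor and Larp1 were added for their role after their values were seen. Alternatives were median centring, quantile normalization, loess trend removal, spike-in scaling, pseudocounts of 1 and 64, the mean over probe sets, leaving out _x_at and _s_at probe sets, other level filters, and leaving out members that are no core subunit. Counting only members above the 98th percentile and leaving out Rpl22l1, and the split by start tract among bright members, were chosen after seeing the data.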

Additional observations from a re-analysis of the deposited data

How the results depend on the processing

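No paired analysis was possible because 1 array stood on either side, and none can be left out. Apart from spike-in scaling, the median ran from -0.062 to -0.041 over all members, from -0.061 to -0.038 over the large subunit and from -0.081 to -0.044 over the small subunit. Spike-in scaling brought the median of all members to 0.10, of the large subunit to 0.11 and of the small subunit to 0.089. It left 35 members higher and 11 lower, with 6 past 1.2-fold higher and 1 lower. The share of all genes past 1.2-fold under this scaling was not counted, but their median rose to 0.16. Because spike-in scaling adds the same value to every gene, the members' distance to that median and the 33 members below it could not change. With the threshold at 1.2-fold, 1 member was higher and 2 were lower in place of 0 and 0 at 1.5-fold. A single gene's value was taken as moved when it shifted by more than 0.12, the pooled SD over probe sets of a member. Spike-in scaling moved all 50 by its uniform shift. Apart from it, 4 of 50 moved with the mean over probe sets and 4 of 45 without _x_at and _s_at probe sets, and 2 and 1 of 50 with pseudocounts of 1 and 64. None moved with median centring, quantile normalization or the loess trend removed. Rps16, the dimmest member, differed by 0.77 with a pseudocount of 1 and by 0.08 with 64. With 1 array per group, differences of this size cannot be set against the spread between cultures.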

Other observations

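Probe sets that list a ribosomal protein name beside other names enter no count or median of members above, although some were quoted beside named members. There were 110, of which 100 passed the level filter and 83 lay above the 98th percentile on both arrays. Their median log2 difference, shLrrfip1a minus control, was -0.07, with 74 below and 26 above the median of all genes; spike-in scaling adds 0.15 to each. These probe sets share transcripts with each other and with the members' probe sets, so they are not independent of them.

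Of the 100, 3 passed 1.5-fold, all downwards, where 2.46% of all genes did. Above the 98th percentile, where most of the 100 lay, 1.44% of other genes passed it in either direction. These shares count genes and not probe sets, so they are no matched comparison. All 3 belong to a set of 4 whose annotation lists Rpl29 with the predicted genes Gm10913, Gm12508 and Gm8210, and on 2 of them further predicted genes. They were singled out after their values were seen. In shLrrfip1a cells they read 2584, 2162, 2366 and 2812, and in control cells 4332, 3531, 3806 and 3906, lower in shLrrfip1a cells on each of the 4. The log2 differences were -0.74, -0.70, -0.68 and -0.47, and all 4 remain lower with spike-in scaling, which adds 0.15. Rpl29 encodes a large-subunit protein that is also known as a heparin-binding protein. Which of the listed genes gave the signal is not resolved by these probe sets, and the 4 read the same 2 RNA samples. Without them the other 96 ran from -0.37 to 0.30, with none past 1.5-fold.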
